A study of Mus musculus with 10 samples.

Results

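A set of 10 genes that set up or read out the granulocyte and monocyte programme were followed through the RNA-seq libraries of the series, out of 22923 gene symbols measured. They were chosen by name: the C/EBP transcription factor genes Cebpa, Cebpb, Cebpd and Cebpe, the transcription factor genes Spi1 (which encodes PU.1) and Gfi1, and the receptor genes Csf3r, Csf1r, Csf2ra and Csf2rb. All 10 were found in each of the 10 libraries, Spi1 under its older symbol Sfpi1. The libraries came from C57bl/6 mice at 4 weeks of age and covered 5 populations: large pre-B cells, small pre-B cells and mature granulocytes from bone marrow, and cycling and quiescent CD4+CD8+ thymocytes from thymus. Control mice were Dyrk1a flox/flox, Mx1-Cre-, and the DYRK1A-deficient mice, labelled CKO, were Dyrk1a -/-, Mx1-Cre+. Each population and genotype had 1 library, made from the pooled cells of 2 mice. Mx1-Cre is a recombinase gene under the interferon-inducible Mx1 promoter, which is active in blood cells and in other tissues, so deletion is not limited to the sorted populations. How it was induced, and the surface gates of the sorts, are not given in the sources used here.

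In myeloid development PU.1 and C/EBPα open the programme in progenitors, and C/EBPα drives the step to granulocyte and monocyte precursors. C/EBPε then drives the late stage at which secondary granules are filled, C/EBPβ serves granulocyte production on demand and macrophage genes, and C/EBPδ is an inflammation-responsive relative. GFI1 is a repressor needed for neutrophils that also acts in T cell and B cell precursors. The receptors pass on the colony-stimulating factors: Csf3r encodes the receptor for G-CSF, Csf1r that for M-CSF, and Csf2ra and Csf2rb the ligand-binding and the shared signalling chain for GM-CSF.

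Levels are given in FPKM, fragments per transcript length and library size, so they are scaled for transcript length and can be set side by side between genes. They are shares of a library: fewer cells of a type in a sorted pool and less RNA per cell cannot be told apart. Summed over all genes, FPKM lay between 360394 and 431868 in the 8 lymphoid libraries and reached 830006 and 1074258 in the control and CKO granulocytes, and 9818 to 10350 genes per library reached 1 FPKM. Read depth is not given. Dyrk1a itself stood at 31.2 to 37.4 FPKM in the control and 34.4 to 44.7 in the CKO libraries, and was higher in the CKO library of every population. The gene-level value thus does not show the deletion, and CKO below means the libraries with that label. T lineage markers summed to 3007 to 4453 FPKM in thymocytes and at most 32.6 elsewhere, and B lineage markers to 1945 to 4399 in pre-B cells. Rag1, which thymocytes also use and which is on the B list, made up most of the B sum in thymocytes. Granulocytes held the secondary granule gene Camp at 22665 and 18472 FPKM. S100a8 and Ngp, which share a gene list with Camp here, were listed at 0 in the control granulocytes, and S100a9 in both granulocyte libraries. The CKO granulocytes held S100a8 at 246142 FPKM, a large share of their sum. An exact 0 can be a failed estimate.

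Most of the genes were far higher in granulocytes than elsewhere, and Gfi1 and Cebpb were the exceptions. For 8 of the 10, both granulocyte libraries lay above all 8 lymphoid libraries. The share of all genes that separate in this way was not counted. By test, 41.3% of 11715 genes were called higher in granulocytes, so the sizes of the gaps say more than the count. The gap between the lowest granulocyte and the highest lymphoid value was 306-fold for Csf3r, 305-fold for Cebpe and 146-fold for Cebpd. It was smaller for Csf2rb (19.0-fold), Csf2ra (16.8-fold), Spi1 (12.3-fold), Csf1r (8.09-fold) and Cebpa (5.56-fold). Thymocyte levels of Cebpb reached into the granulocyte range, and those of Gfi1 exceeded it.

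**Figure D1:**
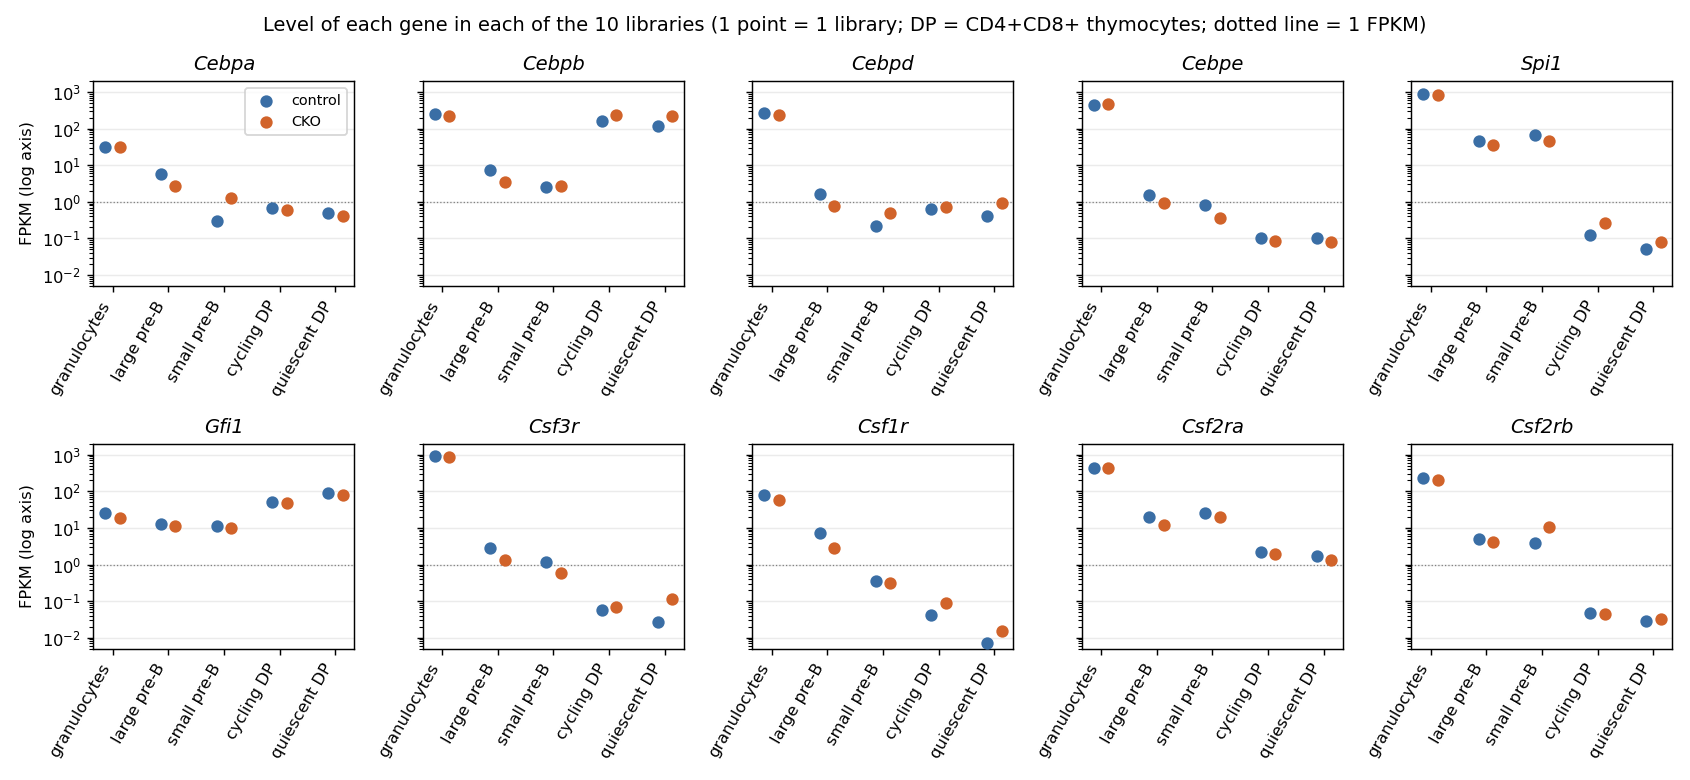
FPKM (log axis) of each gene in each of the 10 libraries, 1 point per library, blue for control and orange for CKO. Granulocytes are highest for 8 genes, Cebpb is as high in thymocytes as in granulocytes in the CKO libraries, and Gfi1 is highest in quiescent thymocytes at 88.2 and 77.5 FPKM.

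The start-site windows of members that followed these different patterns are printed here so that the sequence can be seen beside the levels. RefSeq windows of the GRCm38.p6 build (250 bases before the start site and 50 after) were matched for 5 members, with 6 windows in all: Cebpa, Cebpb, Csf2ra and Csf3r have 1 each and Gfi1 has 2. Cebpd, Cebpe, Spi1, Csf1r and Csf2rb are named only. In all, 3 short motifs were searched on both strands: the PU.1 core GAGGAA, the C/EBP consensus TTNNGNAA and the RUNX core TGTGGT. Among 32851 windows of the same length, 28.3% held GAGGAA, 40.7% TTNNGNAA and 16.8% TGTGGT. Capitals mark the matches. The Csf3r window (chr4:126024409-126024708, plus strand) and the Csf2ra window (chr19:61228369-61228668, minus strand) belong to receptor genes that were high in granulocytes. The Cebpb window (chr2:167688665-167688964, plus strand) and the upstream Gfi1 window (chr5:107725756-107726055, minus strand) belong to genes that were also high in thymocytes.
Csf3r: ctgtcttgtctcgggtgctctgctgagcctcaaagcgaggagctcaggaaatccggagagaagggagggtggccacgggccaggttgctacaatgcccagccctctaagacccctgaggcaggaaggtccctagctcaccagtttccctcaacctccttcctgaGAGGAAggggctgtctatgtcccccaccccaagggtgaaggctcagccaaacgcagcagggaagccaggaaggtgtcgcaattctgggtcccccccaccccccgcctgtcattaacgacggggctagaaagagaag
Csf2ra: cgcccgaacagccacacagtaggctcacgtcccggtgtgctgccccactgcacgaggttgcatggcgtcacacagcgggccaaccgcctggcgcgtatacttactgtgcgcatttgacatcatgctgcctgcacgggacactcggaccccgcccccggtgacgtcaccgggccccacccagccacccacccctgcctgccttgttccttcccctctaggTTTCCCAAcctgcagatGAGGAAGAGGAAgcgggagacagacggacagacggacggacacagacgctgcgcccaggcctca
Cebpb: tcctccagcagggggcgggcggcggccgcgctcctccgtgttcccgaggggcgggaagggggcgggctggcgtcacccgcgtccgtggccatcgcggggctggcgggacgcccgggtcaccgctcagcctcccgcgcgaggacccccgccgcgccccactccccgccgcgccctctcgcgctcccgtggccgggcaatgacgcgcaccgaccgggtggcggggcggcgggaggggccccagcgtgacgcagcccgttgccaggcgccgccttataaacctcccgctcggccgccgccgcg
Gfi1: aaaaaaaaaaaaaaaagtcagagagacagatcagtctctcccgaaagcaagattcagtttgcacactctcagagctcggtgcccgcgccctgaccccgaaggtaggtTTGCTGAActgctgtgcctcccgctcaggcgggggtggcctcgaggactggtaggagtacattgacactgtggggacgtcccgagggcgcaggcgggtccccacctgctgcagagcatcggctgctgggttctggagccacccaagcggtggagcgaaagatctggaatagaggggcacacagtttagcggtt
The Csf3r window held 1 GAGGAA, starting at position -86 from the start site. The Csf2ra window held 2 of them end to end, at -14 and -8, without overlap, and 1 C/EBP match on the opposite strand at -31. The Gfi1 window held 1 C/EBP match on the opposite strand at -143. No match to the 3 motifs was found in the windows of Cebpb and Cebpa or in the other Gfi1 window, and none of the 6 windows held TGTGGT. These are matches of letters, at shares that many promoters reach, and are not evidence of binding.

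Cebpe, the late granulocytic C/EBP gene on chromosome 14 (54710360 to 54712174, minus strand; mm10), was at 454 FPKM in control and 458 in CKO granulocytes. In large pre-B cells it was at 1.49 (control) and 0.933 (CKO), in small pre-B cells at 0.813 and 0.356, and in the 4 thymocyte libraries between 0.0808 and 0.105. The order granulocyte, large pre-B, small pre-B held without overlap, and the thymocyte populations overlapped each other. Granulocytes exceeded the mean of the 4 lymphoid populations by 8.33 on the log2(FPKM + 1) scale (SE 0.13, limma adjusted p = 1.83e-08). Cebpe passed the test filter, 1 FPKM in 2 libraries, only through the granulocytes, so the direction was set by the filter.

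Cebpd, on chromosome 16 (15887286 to 15891031, plus strand), was at 265 FPKM in control and 238 in CKO granulocytes. The 8 lymphoid values lay between 0.223 in small pre-B control and 1.63 in large pre-B control, and the lymphoid populations mostly overlapped. Its excess in granulocytes was 7.22 (SE 0.19, limma adjusted p = 1.38e-07). Like Cebpe, it passed the test filter only through the granulocytes, so the direction was set by the filter.

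Cebpa, on chromosome 7 (35119293 to 35121928, plus strand), is the early factor and was the lowest of the member C/EBP genes in granulocytes, at 32.4 FPKM in control and 32.3 in CKO. Large pre-B cells held 5.81 (control) and 2.73 (CKO), against 0.307 and 1.26 in small pre-B cells and 0.421 to 0.692 in thymocytes. Granulocytes and large pre-B cells stood apart from the rest, while small pre-B cells and cycling thymocytes overlapped. The granulocyte excess was 3.96 (SE 0.27, limma adjusted p = 8.66e-06).

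Cebpb, on chromosome 2 (167688915 to 167690418, plus strand), was at 259 FPKM in control and 222 in CKO granulocytes. Cycling thymocytes held 162 (control) and 236 (CKO), and quiescent thymocytes 115 and 216. Pre-B cells were far lower, at 7.42 (control) and 3.53 (CKO) in the large and 2.60 and 2.67 in the small population. Granulocytes and both thymocyte populations overlapped in Cebpb, and every pre-B library lay below them. The tested excess of granulocytes over the lymphoid mean, 3.06 (SE 0.30, limma adjusted p = 6.67e-05), therefore averages a low and a high lineage.

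Spi1, the PU.1 gene on chromosome 2 (91082390 to 91115756, plus strand), was the highest transcription factor of the set, at 878 FPKM in control and 827 in CKO granulocytes. It was also clearly present in pre-B cells, at 46.3 (control) and 35.1 (CKO) in the large and 67.6 and 45.5 in the small population. The thymocyte libraries held 0.0514 to 0.272. Small and large pre-B cells overlapped and both lay far above thymocytes. The excess in granulocytes was 6.85 (SE 0.15, limma adjusted p = 6.19e-08).

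Gfi1, on chromosome 5 (107716657 to 107726036, minus strand), ran in another order. It was at 88.2 (control) and 77.5 FPKM (CKO) in quiescent thymocytes, 52.1 and 48.3 in cycling thymocytes, 26.0 and 19.3 in granulocytes, 12.7 and 11.3 in large pre-B cells and 11.1 and 10.0 in small pre-B cells. No neighbouring populations overlapped in this order. Against the lymphoid mean it was lower in granulocytes by a small margin, -0.28 (SE 0.08, limma adjusted p = 0.0176). As for Cebpb, that mean averages a high and a low lineage: granulocytes lay below every thymocyte library and above every pre-B library. With equal summed FPKM per library the difference from the lymphoid mean was -1.49. The call was lost without the CKO granulocyte library, where the difference was -0.14, and without the genotype term in the fit (highest adjusted p of the alternatives 0.245).

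Csf3r, the G-CSF receptor gene on chromosome 4 (126024550 to 126044440, plus strand), was the highest member in granulocytes, at 935 FPKM in control and 848 in CKO. Large pre-B cells held 2.77 (control) and 1.33 (CKO), small pre-B cells 1.15 and 0.606, and thymocytes 0.0276 to 0.116. Its granulocyte excess of 9.14 (SE 0.17, limma adjusted p = 2.96e-08) was the 24th highest of 11715 genes tested. Its window, shown above, holds the single GAGGAA.

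Csf2ra, on chromosome 19 (61223957 to 61228429, minus strand), stood at 448 FPKM in control and 437 in CKO granulocytes. Pre-B cells held 20.0 (control) and 12.2 (CKO) in the large and 25.9 and 19.6 in the small population, and thymocytes 1.30 to 2.16. The pre-B populations overlapped, and thymocytes were lower than every pre-B library. The granulocyte excess was 5.91 (SE 0.13, limma adjusted p = 6.44e-08).

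Csf2rb, on chromosome 15 (78325752 to 78353847, plus strand), was at 230 FPKM in control and 206 in CKO granulocytes. It was at 4.87 (control) and 4.02 (CKO) in large pre-B cells, 3.98 and 10.8 in small pre-B cells and 0.0295 to 0.0489 in thymocytes. Its near-identical neighbour Csf2rb2, the IL-3-specific chain, can take or give reads, so both values are uncertain. Csf2rb2 had the same order, with 44.8 and 38.8 FPKM in granulocytes. The granulocyte excess of Csf2rb was 6.40 (SE 0.27, limma adjusted p = 1.03e-06).

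Csf1r, the M-CSF receptor gene (GENCODE places it at 61100598 to 61132149 on the plus strand of chromosome 18), was the lowest of the member receptor genes in granulocytes, at 77.2 FPKM in control and 57.8 in CKO. Large pre-B cells held 7.15 (control) and 2.75 (CKO), small pre-B cells 0.350 and 0.319, and thymocytes 0.00730 to 0.0880. All 5 populations stood apart in this order. The granulocyte excess was 5.34 (SE 0.23, limma adjusted p = 1.06e-06).

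Across the set, 9 genes were higher in granulocytes than in the lymphoid mean and 1 was lower, against 41.3% higher and 39.5% lower among all 11715 genes tested. So many genes differ between these cell types that a call alone says little, and the sizes say more. The median difference of the 10 was 6.16, against -0.01 over all genes. All 10 passed the filter of 1 FPKM in 2 libraries, but Cebpd and Cebpe did so through the granulocyte libraries, with 1 lymphoid library each at that level. Their direction was thus set by the filter, and their higher calls add nothing to the count. The 9 higher calls held in 17 of 17 alternative settings, where Cebpa ranged from 2.56 to 4.93 and Cebpb from 1.91 to 3.24. Rescaling all libraries to the same summed FPKM moved the median of all genes to -0.98 and the share of calls that were higher from 51.1% to 21.9%. Rescaling by median ratios moved them to -0.21 and 44.4%.

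**Figure D2:**
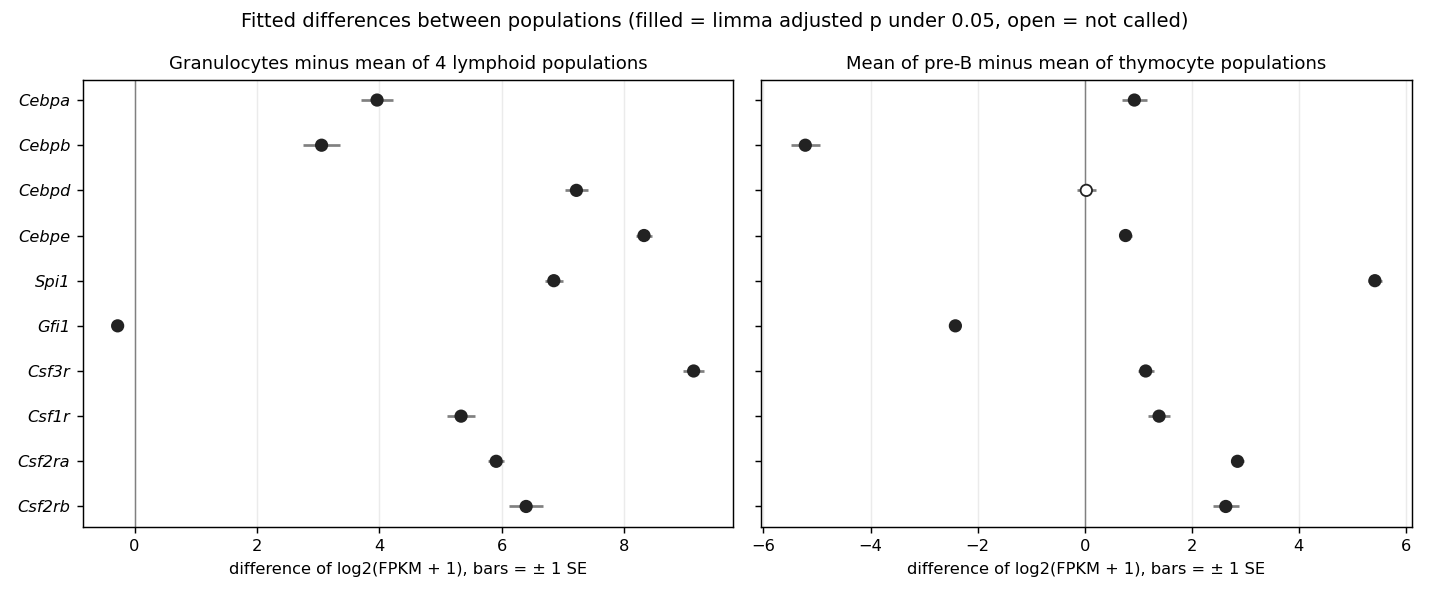
Fitted log2(FPKM + 1) differences with bars of 1 SE, granulocytes against the 4 lymphoid populations on the left and pre-B cells against thymocytes on the right. Csf3r is highest on the left at 9.14, and on the right Spi1 (5.42) and Cebpb (-5.22) lie at the opposite ends.

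The rest of the pathway was read from lists of related genes. Among other receptors of myeloid cells, 19 of 23 tested were higher and 2 lower, with a median of 2.37. The chemokine receptor gene Cxcr2 led at 937.9 and 866 FPKM in granulocytes and at most 0.894 elsewhere. Of the 23, 19 pass the filter on the 8 lymphoid libraries. The direction of the others, Cxcr2 among them, was set by the filter. Of the genes for signalling below these receptors, 27 of 33 were higher and 4 lower (median 1.86), led by the adaptor gene Tyrobp with a difference of 8.54. Other myeloid and progenitor transcription factors were split, 17 higher and 12 lower of 34, with Lmo2 the furthest at 4.48. Of 9 corepressor partners of GFI1 and the C/EBP factors tested, 7 were lower and 2 higher, and Cbfa2t3 fell by 3.44. Of 15 late neutrophil genes, 5 pass the filter on the 8 lymphoid libraries, so the direction of the other 10 was set by the filter. Of 17 genes on the secondary and tertiary granule list, 14 were higher. The other 3 were S100a9, S100a8 and Ngp, the genes listed at 0 above, and the lower call of S100a9 rests on those values. Of the C/EBP relatives Cebpg, Cebpz and Ddit3, only Ddit3 was called, higher by 0.57. As for Cebpb, this averages the lineages: Ddit3 was at 40.5 and 41.8 FPKM in granulocytes, 49.9 to 65.3 in thymocytes and 8.68 to 18.0 in pre-B cells. The ligand genes were low: Il3 was listed at 0 in every library, and of 8 ligand genes only Csf1 and Flt3l reached the filter, Csf1 being higher in granulocytes by 1.96.

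Pre-B cells and thymocytes were next compared, to see which myeloid genes separate the lymphoid lineages. In all, 7 members were higher in pre-B cells and 2 lower, against 36.5% and 33.2% of all genes tested. Spi1 was higher by 5.42 (SE 0.13, limma adjusted p = 4.85e-07), the 39th highest difference of 11715. The GM-CSF receptor chains followed, Csf2ra by 2.85 (SE 0.12, limma adjusted p = 2.92e-06) and Csf2rb by 2.63 (SE 0.25, limma adjusted p = 9.70e-05). Csf1r (1.39), Csf3r (1.14), Cebpa (0.93) and Cebpe (0.76) were higher by smaller margins, with limma adjusted p from 0.000482 to 0.0110. Their thymocyte levels were all under 1 FPKM. Cebpb was lower in pre-B cells, -5.22 (SE 0.27, limma adjusted p = 8.12e-06), the 33rd lowest difference, and Gfi1 was lower too, at -2.42 (SE 0.07, limma adjusted p = 1.14e-06). Cebpd was not called (0.03, limma adjusted p = 0.893). These 9 calls held in 17 of 17 alternatives, but the sizes for low genes moved widely, from 0.34 to 3.07 for Csf3r, 0.51 to 3.38 for Csf1r, 0.21 to 2.23 for Cebpe and 1.07 to 5.31 for Csf2rb. The median of all genes moved from 0.05 to 0.11 under median-ratio rescaling. Beside them Spib, the relative of Spi1 in B cells, was higher by 7.34, the kinase gene Lyn by 6.06, and the receptor gene Ifngr1 was lower, at -3.88.

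Within the pre-B lineage, small cells were compared with large cells. Csf1r was lower in small cells, -2.05 (SE 0.29, limma adjusted p = 0.00409), and kept its call in 17 of 17 alternatives, at -3.39 to -0.86. Cebpa was lower too, -1.55 (SE 0.34, limma adjusted p = 0.0130), but not without the large pre-B control (-1.04) or without the small pre-B control (-1.03). Csf3r (-0.67, limma adjusted p = 0.0413), Cebpe (-0.49, 0.0474) and, in the other direction, Csf2ra (0.50, 0.0477) passed the threshold narrowly and held in 5, 3 and 4 of 17 alternatives. Their differences ranged there from -1.11 to -0.26, from -0.99 to -0.15 and from 0.26 to 0.74. That makes 4 lower and 1 higher, beside 19.1% lower and 22.1% higher among all genes. Cebpb, Cebpd, Spi1, Gfi1 and Csf2rb were not called, and Csf2rb was -0.17 without the small pre-B CKO library. Rescaling to the same summed FPKM moved the share of higher calls over all genes from 53.7% to 76.0% and their median from 0.02 to 0.18.

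Genes of primary granules, which are made at the promyelocyte stage, moved in the same contrast. Of 8 genes listed for them, 6 were lower in small than in large pre-B cells, and Mpo fell by 5.23 on the log2 scale. Genes on the secondary and tertiary granule list went the other way. Of 17, 9 were higher in small cells, among them Camp by 1.74 and Ltf by 1.65, and 2 were lower. Erythroid markers were lower in small cells for 9 of 10 (median -1.74), with sums of 554.8 and 358.3 FPKM in large and 130.2 and 129.3 in small cells of control and CKO. Large pre-B libraries held Mpo at 365 FPKM in control and 159 in CKO, 75.2% of the granulocyte mean, and Elane at 55.0% of it. The late granule genes Camp, Ltf and Lcn2 were at 0.0376%, 0.0252% and 0.0374%. Of the members, Cebpa reached 13.2% of the granulocyte mean in large pre-B cells, Csf1r 7.33%, Spi1 4.77%, Csf2ra 3.64% and Csf2rb 2.04%. Cebpd, Cebpe and Csf3r stayed at 0.474%, 0.266% and 0.230%. In small pre-B cells Cebpa was at 2.43% and Csf1r at 0.495%, while Spi1 (6.63%) and Csf2ra (5.14%) were higher shares than in the large cells. Monocyte markers summed to 308.5 FPKM in control and 115 in CKO large pre-B cells and to 18.9 and 68.0 in small ones, and 5 of 14 of them were lower in small cells. Of its 18 genes, 12 reached 1 FPKM in the large pre-B control and 6 in the CKO, where the macrophage gene Marco was listed at 0. The macrophage genes C1qa, C1qb and Adgre1 were at 3.87, 4.49 and 1.42 FPKM in the control. The part of such cells, myeloid or erythroid, in the values of Csf1r and Cebpa was not tested.

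**Figure D3:**
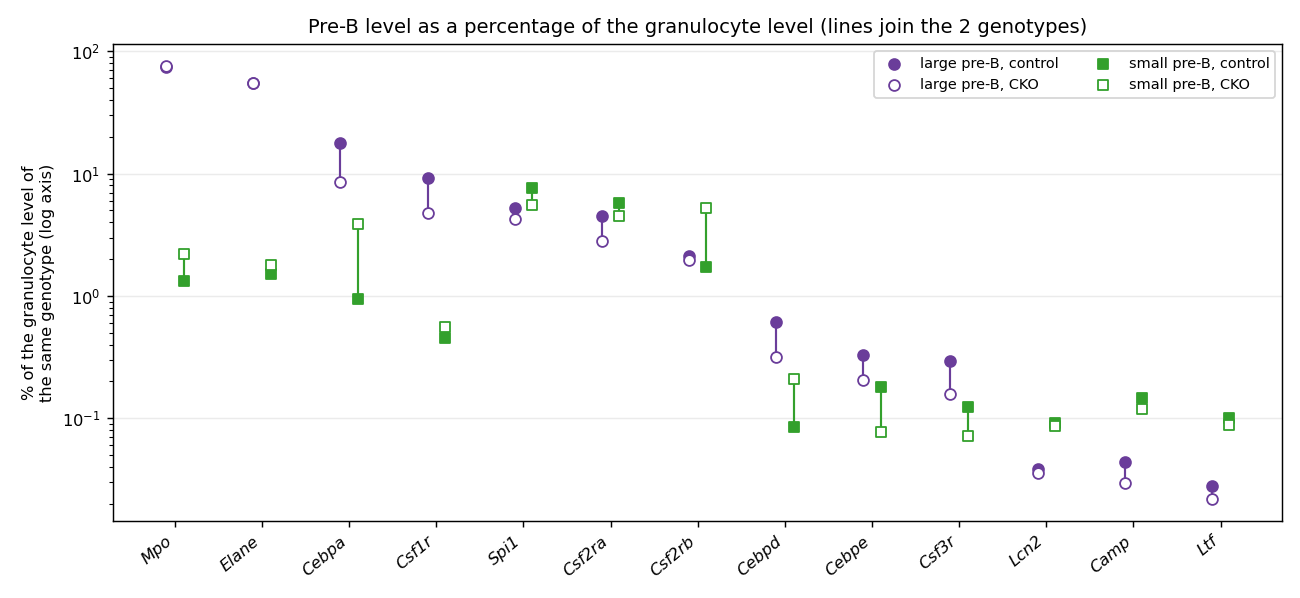
Pre-B levels as a percentage of the granulocyte level of the same genotype (log axis), circles for large and squares for small pre-B cells, filled for control and open for CKO. Mpo and Elane lie above 50% in large pre-B cells, Cebpa and Csf1r between 4.76% and 17.9%, and the late genes Lcn2, Camp and Ltf below 0.0441%.

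Between thymocyte populations only Gfi1 was called. It was higher in quiescent than in cycling cells by 0.71 (SE 0.11, limma adjusted p = 0.00459), both quiescent libraries lying above both cycling ones. Without the cycling control library the difference was 0.65 and the limma adjusted p rose to 0.0572. The 1 member higher and 0 lower stand beside 21.1% higher and 17.3% lower over all genes, and 1 member had an unadjusted p under 0.05, beside 47.9% of all genes. Cebpb (-0.31, limma adjusted p = 0.592) and Csf2ra (-0.30, limma adjusted p = 0.202) were not called. The Cebpb libraries of the populations overlapped and those of Csf2ra did not. The other 7 members were under 1 FPKM in every thymocyte library.

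The effect of the genotype was tested over all 5 populations together. None of the 10 members was called by limma, as was true of nearly all genes (0.0512% of 11715 called in either direction). An unadjusted p under 0.05 was found for 2 members, beside 16.8% of all genes, which is about the background. These were Gfi1, -0.20 (SE 0.07, limma adjusted p = 0.242), which was lower in the CKO library of all 5 populations, and Csf2ra, -0.28 (SE 0.10, limma adjusted p = 0.265), also lower in all 5. Whether the genotype difference itself differed between pre-B cells and thymocytes was tested on the 8 lymphoid libraries, where 8 members passed the filter. Limma called 0 of them, beside 0.00899% of 11126 genes, and 3 had an unadjusted p under 0.05, beside 14.4% of all genes. Cebpb had the largest such difference, -1.16 (SE 0.33, limma adjusted p = 0.217), and Spi1 (-0.58) and Csf3r (-0.63) had limma adjusted p of 0.229 each.

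Within a population there is 1 library per genotype, so no test can be made, and a difference was counted at 2-fold or more in FPKM + 1 (a log2 ratio of 1) where the higher of the pair reached 5 FPKM. In granulocytes 0 of 10 members passed that size, near the background of 2.33% of the genes considered, and 9 of 10 ratios were slightly below 0 (median -0.15). Gfi1 and Csf1r were furthest, at -0.41 each, while Cebpa was at -0.0037 and Cebpe at 0.01. T lineage markers, whose cells are rich in Gfi1, summed to 32.6 FPKM in the control and 9.24 in the CKO granulocytes. In the same pair of libraries 6 of 8 genes on the primary granule list were at least 2-fold lower in CKO. Mpo went from 489 to 209 FPKM, Elane from 458 to 207 and Prtn3 from 325 to 109. Gstm1, also among the 6, was present in every population and lower in CKO in each, at log2 ratios from -1.29 to -0.68. Of 13 monocyte genes considered, 6 were lower and 2 higher, and erythroid markers summed to 100.8 FPKM in control and 330.2 in CKO. The part of other cells in the granulocyte ratios was not tested.

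In large pre-B cells every member was lower in CKO than in control, with a median log2 ratio of -0.63 over all members. The median over all genes considered was 0.03, but only genes reaching 5 FPKM count there, and not every member does. The share of all genes lower in CKO by any size was not counted. Of the 6 members considered, 1 passed 2-fold, Csf1r at -1.12, beside 0.972% of all genes that were 2-fold lower. Cebpb (-0.90), Cebpa (-0.87) and Csf2ra (-0.67) came next, and Gfi1 (-0.16) had the ratio nearest 0. The count depends on the value added before taking logs: Cebpa and Cebpb also pass with 0.1 in place of 1, which makes it 3, and with 5 it is 0. Of 7 primary granule genes considered 5, and of 6 monocyte genes 4, were at least 2-fold lower in the same pair, with medians of -1.19 and -1.25. Primary granule genes summed to 967 FPKM in control and 413 in CKO. Erythroid markers summed to 554.8 and 358.3, with 0 of 6 considered past 2-fold, and natural killer markers to 64.8 and 126.1, with 4 of 8 higher. The part of all of these in the members' ratios was not tested.

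In small pre-B cells the 10 ratios were split, 4 above and 6 below 0. Csf2rb was the 1 of 4 members considered that passed 2-fold, higher in CKO by 1.25, beside 4.52% of genes that were 2-fold higher, and with 5 in place of 1 added the count was 0. Its near-copy Csf2rb2 rose further, from 1.22 to 12.0 FPKM, a log2 ratio of 2.55. Spi1 was lower at -0.56 and Csf2ra at -0.39, and neither passed 2-fold. In this pair 9 of 12 markers of plasmacytoid dendritic cells were at least 2-fold higher in CKO and 1 lower (median 1.83). Siglech went from 2.25 to 41.5 FPKM, Bst2 from 21.1 to 134 and Runx2 from 1.06 to 28.1. The highest genes of that marker list went down, Ly6d from 939 to 468 FPKM and Spib from 839 to 420. The sum of the list went down as well, from 1942 to 1436 FPKM. Natural killer markers summed to 10.5 and 94.4 FPKM, and 5 of 5 considered were higher. The part of such cells in the Csf2rb ratio was not tested.

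In thymocytes Cebpb and Gfi1 were the members with 5 FPKM or more. Cebpb was higher in CKO in both populations, by 0.54 in cycling and 0.91 in quiescent cells, without passing 2-fold, while Gfi1 was at -0.11 and -0.18. Jun, an immediate early gene that also responds to handling of cells, was higher in the same CKO libraries by 1.09 and 1.90, and its part was not tested. Thus 0 of 2 members passed in either population, beside 0.954% of genes in cycling and 5.26% in quiescent thymocytes.

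**Figure D4:**
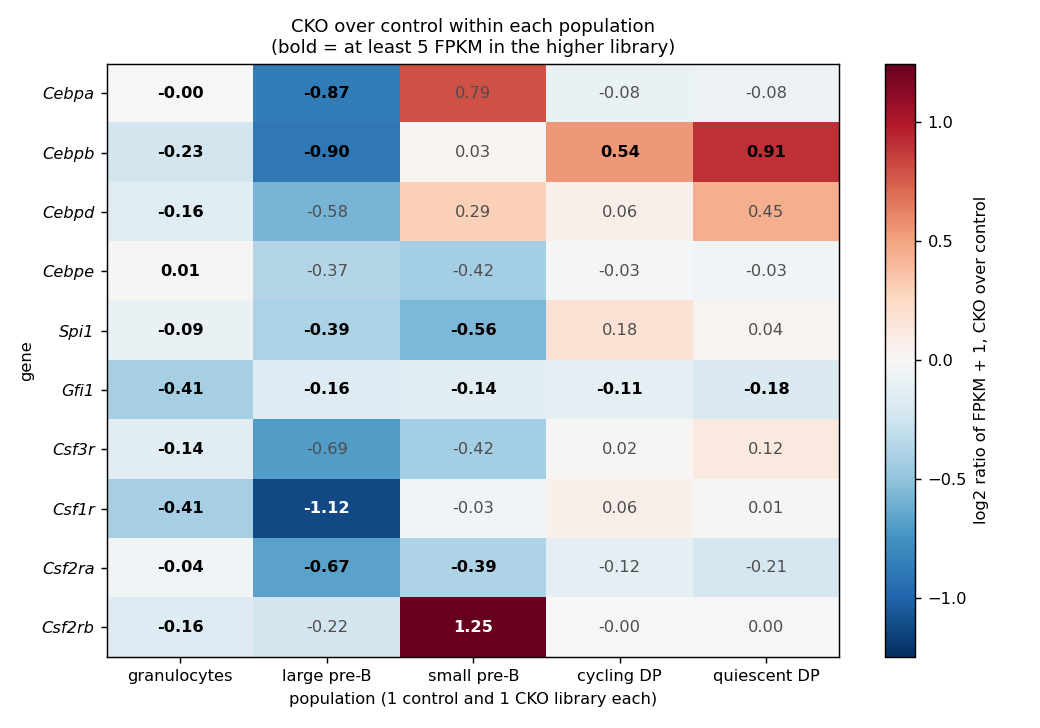
Log2 ratio of FPKM + 1, CKO over control, for each gene (rows) and population (columns), 1 library per genotype, bold where the higher of the pair reached 5 FPKM. All 10 ratios are below 0 in large pre-B cells, and the largest is Csf2rb in small pre-B cells at 1.25.

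The genes whose levels ran most like each member over the 10 libraries are given as a description, by Pearson r of log2(FPKM + 1) among 9293 genes. The libraries fall into 5 cell types, so any gene confined to granulocytes reaches a high r. Csf3r was most like Fam101b (0.9995), Mcemp1 and Ccl6, and Cebpe most like Lilrb4 (0.9995), Mcemp1 and Cd300lb. They had 885 and 904 genes at r of 0.95 or more, and Cebpd, closest to Tbc1d2, Gyg and C1rl, had 837. Cebpa ran most like Atp8b4 (0.993), Anxa3 and Fcgr3, and Csf1r like Svip (0.998), Tgfbi and Anxa3, all with a visible level in large pre-B cells. Cebpa and Csf1r also ran like each other, with r of 0.993. Spi1 ran with Orai3 (0.996), Chchd8 and Usp8, Csf2ra with Rab31, Capg and AB124611, and Csf2rb with Plek, Rab28 and Nfam1. Plek and Nfam1 shared with Csf2rb the higher level in small pre-B CKO than control cells, 9.86 against 3.33 FPKM and 10.3 against 4.01. Gfi1 ran with Ifngr1 (0.995) and Tmem222, and had 97 genes at 0.95. Cebpb had the fewest, 52, and was closest to Ddx3x (0.983), Hnrpll and the transcription factor gene Nfil3.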

How the data were processed

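Total RNA of each pool was sequenced from Illumina libraries, per the labels' protocols. The authors deposited 1 normalized value per gene and library, read here as FPKM from the tools and the scale of the values, with no counts, so read depth and counting error are unknown. TopHat2 2.0.8b, Cuffdiff 2.1.1 and the mm10 build are named in the submitters' processing notes. Not given in the sources used here are the gene annotation, the strand setting and the role of each tool.

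The tables each had 23179 rows. Of these, 201 repeated another row and 153 named several genes. The test was limma 3.58.1 (R 4.3.3), with its trend option, on log2(FPKM + 1). It was fitted over all 10 libraries with terms for population and genotype, for genes at 1 FPKM or more in 2 libraries, two-sided, with Benjamini-Hochberg adjustment over all genes tested and a threshold of 0.05. The genotype difference between lineages used the 8 lymphoid libraries. The fits left 4 and 2 residual degrees of freedom. The control and CKO libraries of a population served as its 2 values. The p-values of the population comparisons therefore measure how alike 2 pools are after a shared genotype shift. Those of the genotype measure how constant the CKO difference was from population to population. Those of the difference between lineages measure how constant it was within each lineage. None of them measures the spread between animals. Adding 1 understates the change of low genes. The fits were tested on simulated data.

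The members and 17 gene lists (254 of 255 entries found) were chosen with earlier results of these data known. Named genes are the members, the 3 genes most like each, and per list the 3 highest genes and the largest difference in a comparison; some of these are not reported here. Siglech, Bst2, Ltf, Lcn2, Csf2rb2, Il3, C1qa, C1qb, Adgre1 and the genes listed at 0 lie outside that rule and were chosen after their values were seen. Unless stated otherwise, gene positions are from GENCODE vM21 on mm10. Alternatives were other pseudocounts, filters and scalings, no genotype term, and leaving out each library.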

Additional observations from a re-analysis of the deposited data

How the results depend on the processing

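Of the counts recomputed under the alternatives, 297 stayed within 1.5 times and 50 moved. Of the values of single members, 999 kept their call, 44 lost and 3 gained a call, and 6 moved. Another 35 changed sign, all of them fitted differences that were not called. For ratios within a population that were not past 2-fold, changes of sign were not looked for, so the 999 can hold some. The cause was not tested in any case. In granulocytes against lymphoid cells, members lower came to 0 without the genotype term and to 0 to 1 with single libraries left out. In small against large pre-B cells, members higher came to 0 with a pseudocount of 5, no filter, median-ratio scaling or no genotype term, and to 0 to 1 with libraries left out. Members lower came there to 2 with a pseudocount of 5, no filter, equal summed FPKM or no genotype term, and to 1 to 4 with libraries left out. The genes called there ranged from 1509 to 4907, the fewest without the large pre-B control, against 4825. Between thymocyte populations they ranged from 651 to 4703, against 4496, the fewest without the cycling control, and members higher from 0 to 1. For CKO over 5 populations the genes called were 2 with a pseudocount of 5, 1 with no filter and 1 to 4 with libraries left out, against 6. For the CKO difference between lineages they were 0 with no filter and 0 to 4, against 1, and leaving out a granulocyte library does not apply there. In large pre-B cells, members 2-fold lower were 3 with a pseudocount of 0.1, 0 with 5 and 3 with equal summed FPKM. In small pre-B cells, members 2-fold higher were 0 with a pseudocount of 5.

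Sign changes of the fitted differences were these. Cebpd in pre-B cells against thymocytes was -0.0516 with a pseudocount of 0.1, -0.00274 with equal summed FPKM and -0.16 to 0.22 with libraries left out. Small against large pre-B gave Gfi1 0.00680 with equal summed FPKM, and Csf2rb -0.17 to 1.17 with libraries left out. Quiescent against cycling thymocytes gave Cebpb -0.83 to 0.22. CKO over 5 populations gave Cebpa 0.0590 with a pseudocount of 0.1, Cebpd -0.0264 with 5 and Cebpb -0.0169 with equal summed FPKM. With libraries left out it gave Cebpa -0.26 to 0.16, Cebpb -0.14 to 0.31, Cebpd -0.10 to 0.16 and Csf2rb -0.10 to 0.27. The CKO difference between lineages gave Cebpa -0.10 and Gfi1 0.0247 with a pseudocount of 5, and Gfi1 0.0150 with median ratios and 0.00904 with equal summed FPKM. With libraries left out it gave Gfi1 -0.0426 to 0.0345, Cebpa -0.79 to 0.87 and Csf2rb -0.22 to 1.25. The genotype fit already compares the control and CKO libraries within each population. The labels give no replicate numbers, and no other pairing was made.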

Other observations

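Genes that act below the receptors, or beside them, also moved within the lymphoid lineages. In small against large pre-B cells 15 of 33 signalling genes were higher and 0 lower, beside 22.1% higher over all genes. The corepressor gene Cbfa2t3 was higher in small pre-B cells by 1.27 (limma adjusted p = 0.00393) and in quiescent thymocytes by 1.16 (limma adjusted p = 0.00476). Among other receptors Il4ra was higher in quiescent thymocytes by 1.09 (limma adjusted p = 0.00630).

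Flt3, the receptor gene of early progenitors and dendritic cells, went from 1.88 to 8.89 FPKM in large and from 0.589 to 9.99 in small pre-B cells between control and CKO. Its genotype difference between lineages was 2.22 (SE 0.35, limma adjusted p = 0.121) and was not called. Natural killer markers were at least 2-fold higher in CKO for 4 of 8 considered in large pre-B cells, and dendritic cell markers for 0 of 9.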
